A study of Homo sapiens with 4 samples.

Results

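The genes described here are 31 genes of the hypoxia response and of glycolysis, followed in MKN45 cells, a gastric epithelial line derived from a human adenocarcinoma. The list held 12 targets of the hypoxia-inducible factors (HIF) and 19 genes of glucose uptake and glycolysis, of which 15 encode glycolytic enzymes. It is a list of known pathway genes and not a set picked by a threshold in these arrays, although it was drawn up with earlier results of the same arrays known. Only probe sets that the platform annotation ties to a single symbol were used, and of several for a gene the one with the highest mean over all arrays. This gave values for 30 of the 31 genes, out of 16252 genes tested. All 30 lay above the level filter used for the test. CA9, a carbonic anhydrase at the cell surface, was not analysed here, because no probe set carried that symbol alone.

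The 2 LPS arrays came from cells given medium with 10 µg/ml lipopolysaccharide (LPS) of the stomach bacterium Helicobacter pylori, and the 2 untreated arrays from cells given fresh medium, with RNA taken 8 h later in both groups. Both groups came from this 1 line, kept in RPMI medium with foetal calf serum, glutamine, penicillin and streptomycin, and the protocols name no culture low in oxygen or glucose. The 4 arrays correlated at 0.996 to 0.998 with each other. The design text speaks of 2 independent experiments, so n = 2 in each group throughout. The labels do not say more of how the cultures were separated, and the p-values measure the spread between these arrays and the variance trend over all probe sets. Of 12 epithelial markers, 11 were above the level filter, with an array mean over the 12 of 11.53 to 11.54 log2 units on the LPS arrays and 11.52 to 11.54 on the untreated arrays. Of 8 leukocyte markers with a probe set, 6 were above the filter, with array means of 7.16 to 7.20 on the LPS arrays and 7.21 to 7.23 on the untreated arrays. Of these, PTPRC (5.51 in LPS-treated and 5.55 in untreated cells, group means) and CD14 (5.51 in LPS-treated and 5.57 in untreated cells) lay under the filter. CD3E lay above it at 7.90 in both groups, as did LYZ, the lysozyme gene, at 12.60 in LPS-treated and 12.74 in untreated cells (difference -0.15, unadjusted p = 0.0164, limma adjusted p = 0.349). Of 10 fibroblast and endothelial markers, 8 were above the filter, with array means of 6.96 to 7.01 on the LPS arrays and 6.88 to 6.97 on the untreated arrays. Most markers of every list thus passed the filter, which therefore does not tell these cell types apart, and their part in the results was not tested.

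Cells adjust glucose use to oxygen through HIF, a pair of proteins in which the oxygen-sensitive alpha subunit is marked for destruction by prolyl hydroxylases (the EGLN enzymes) and the VHL ubiquitin ligase while oxygen is present. When the alpha subunit persists, it pairs with ARNT, binds DNA at a short core motif and raises transcription of genes for glucose uptake, glycolysis, blood vessel growth, acid export and removal of mitochondria. In innate immune cells bacterial LPS is known to raise glycolysis and HIF1A as well, and carcinoma cells often run glycolysis strongly even in oxygen.

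The HIF core motif ACGTG was located in the promoters, since HIF is known to bind it. The promoter table of RefSeq (build GRCh38.p14) held 27 of the 31 genes, CA9 among them, with 44 start sites, and the 250 bases before each start were searched on both strands. VEGFA, NDRG1, BNIP3L and SLC2A3 had no entry. The motif, read as ACGTG or CACGT, lay in 20 of 44 windows (45.5%), against 18.5% of the 35116 windows of all genes in the table. Some windows of 1 gene overlap, and the member windows are not independent of each other. The palindrome CACGTG contains this core and is also a known binding motif of MYC. It was present in 8 of the 44 windows, against 6.34% of all. The variant GCGTG or CACGC was in 16 of 44 (36.4%), against 32.2% of all windows. Among the 7 genes with the smallest p-values below, the core motif was in 4 of 12 windows (33.3%), and among the other members in 16 of 32 (50%). Counted by gene, it was in 3 of these 7 (42.9%) and in 14 of the other 20 (70%), against 21.7% of all genes in the promoter table. The 5 windows shown are those of the gene with the largest difference (SLC2A1, without the motif), of PDK1 and HK2 (higher on both LPS arrays, with it), of ANKRD37 (a small difference, with it) and of LDHA (no clear difference, with 3 marked places). PDK1, HK2 and LDHA have 2 windows each, and the one shown was chosen for its motifs: the window not shown has 0 marked places for PDK1 and LDHA and 2 for HK2. Capitals mark each ACGTG or CACGT.
SLC2A1 (chr1:42958869-42959118, minus strand): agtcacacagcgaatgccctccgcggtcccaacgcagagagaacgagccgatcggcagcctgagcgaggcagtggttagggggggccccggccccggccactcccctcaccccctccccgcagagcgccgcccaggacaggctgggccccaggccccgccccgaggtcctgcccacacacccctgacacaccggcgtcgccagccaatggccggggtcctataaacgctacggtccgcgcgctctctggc
PDK1 (chr2:172555840-172556089, plus strand): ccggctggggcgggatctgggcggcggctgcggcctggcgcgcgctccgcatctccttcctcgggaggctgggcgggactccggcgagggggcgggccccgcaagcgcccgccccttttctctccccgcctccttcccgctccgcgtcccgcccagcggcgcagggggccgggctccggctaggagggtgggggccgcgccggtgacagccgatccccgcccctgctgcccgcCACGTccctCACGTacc
HK2 (chr2:74834920-74835169, plus strand): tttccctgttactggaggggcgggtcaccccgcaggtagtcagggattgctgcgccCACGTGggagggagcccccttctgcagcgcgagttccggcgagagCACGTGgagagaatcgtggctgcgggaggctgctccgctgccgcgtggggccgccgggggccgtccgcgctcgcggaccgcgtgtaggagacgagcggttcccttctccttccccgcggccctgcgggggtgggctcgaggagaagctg
ANKRD37 (chr4:185396591-185396840, plus strand): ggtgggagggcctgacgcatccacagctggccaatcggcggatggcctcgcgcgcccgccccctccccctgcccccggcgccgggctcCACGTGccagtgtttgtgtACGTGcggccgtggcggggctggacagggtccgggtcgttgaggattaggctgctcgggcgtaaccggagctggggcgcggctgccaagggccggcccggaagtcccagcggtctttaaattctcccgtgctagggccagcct
LDHA (chr11:18394313-18394562, plus strand): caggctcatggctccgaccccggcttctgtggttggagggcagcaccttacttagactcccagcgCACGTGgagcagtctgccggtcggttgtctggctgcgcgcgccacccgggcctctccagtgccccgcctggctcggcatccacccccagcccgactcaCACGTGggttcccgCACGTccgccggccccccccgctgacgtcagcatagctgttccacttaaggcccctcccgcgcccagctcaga
A match is a description of these letters and not a measured binding site. Bases outside these windows were not searched, so a window without the motif does not show that the gene lacks it elsewhere.

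None of the 30 genes passed the test of LPS-treated against untreated cells, and their log2 differences (LPS minus untreated) ran from -0.13 to 0.31. The smallest adjusted p was 0.27 (PGAM1, limma, Benjamini-Hochberg over 16252 genes). Over all genes 4 passed, all higher (0.0246% of those tested), and 0 passed in the lower direction, where 1286 were lower at an unadjusted p under 0.05. Those 4 were the chemokine genes CCL20 (7.61-fold), CXCL1 (3.98-fold), CXCL8 (3.31-fold) and CXCL3 (2.02-fold). Each of these changes was larger than the difference of any of the 30 genes. The 95% intervals of all 30 genes lay between 0.814-fold and 1.40-fold of the untreated level.

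Without the adjustment, more of these genes were higher than lower. At an unadjusted p under 0.05, 7 of 30 were higher in LPS-treated cells (23.3%), against 3.72% of all genes tested, and 0 were lower, against 7.91% of all. The 7 were SLC2A1, PFKFB4, PFKP, PDK1, PKM, PGAM1 and HK2, of which 6 were listed under glycolysis and 1, PDK1, under the HIF targets. These lists do not exclude each other in biology, since SLC2A1 and LDHA, listed under glycolysis, are HIF targets as well. Both LPS arrays lay above both untreated arrays for 14 of 30 genes (46.7%), against 19.7% of all genes, and below both for 2 (6.67%), against 25.7%. The difference was above 0 for 22 of 30 (73.3%), against 48.2% of all. Without LPS array 2 the count was 2, SLC2A1 and PGAM1, against 1.45% of all genes in that smaller fit. The differences of the other 5 were then 0.20 for PDK1, 0.18 for PFKFB4, 0.14 for PKM, 0.11 for PFKP and 0.11 for HK2. Without the variance trend in the fit the count was 3 (SLC2A1, PFKFB4 and PDK1), against 3.69% of all genes. With the mean of probe sets it was 5 (ADM, BNIP3, SLC2A1, PFKFB4 and PGAM1), against 4.8% of all genes. There 1 gene, BNIP3L, was lower, against 8.34% of all. HK2, PKM and PDK1 also have probe sets above the filter with the opposite sign, described below. All 30 genes were measured on the same arrays, so their differences are not independent of each other. The counts set against all genes above were not tested. In these bulk samples, a difference in RNA per cell and a difference in the number of cells with that RNA cannot be told apart.

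**Figure D1:**
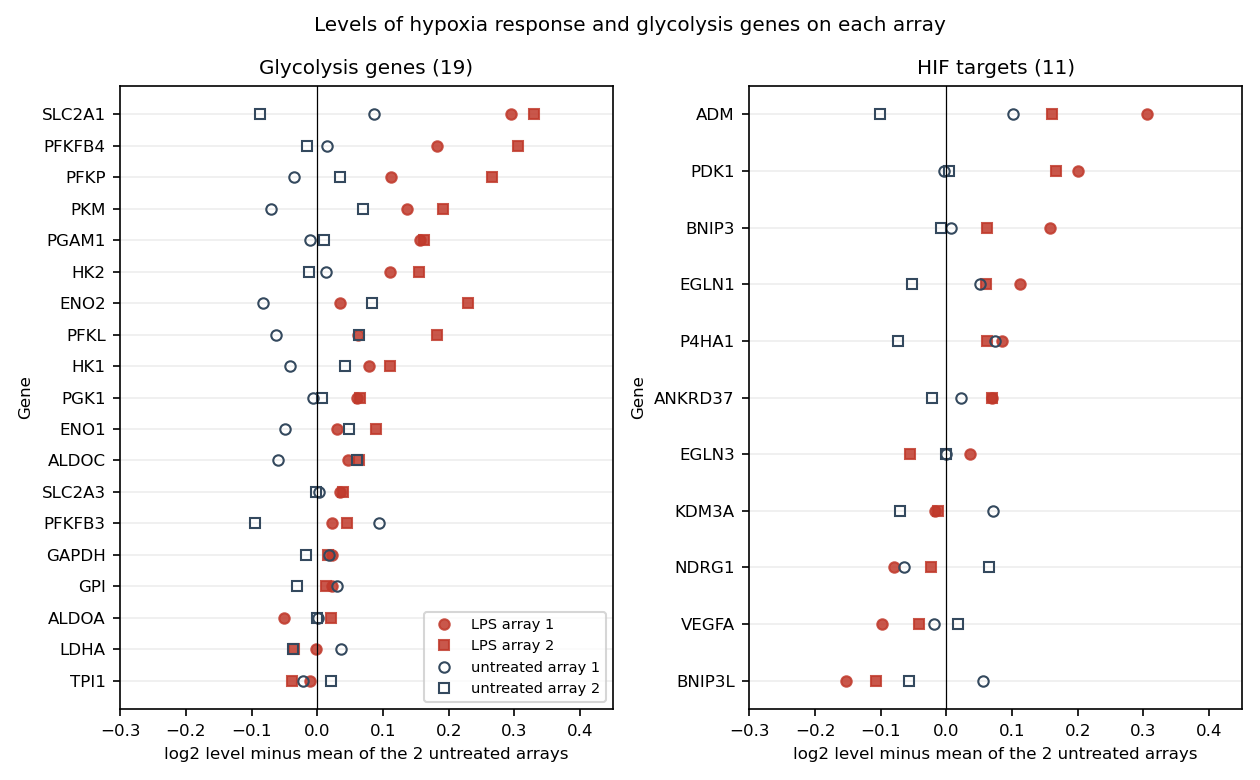
Each point is the log2 level on 1 array minus the mean of the untreated arrays (horizontal axis), for the 19 glycolysis genes on the left and the 11 measured HIF targets on the right, ordered by difference. Filled red symbols are LPS arrays and open symbols untreated arrays, with circles for replicate 1 and squares for replicate 2. For 14 genes both red points lie right of both open points, and only VEGFA and BNIP3L have both red points to the left of both open points.

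The median log2 difference (LPS minus untreated) was 0.07 over the 30 genes, 0.06 over the 19 glycolysis genes and 0.07 over the 11 HIF targets, against -0.0047 over all genes tested. Above 0 were 16 of 19 glycolysis genes and 6 of 11 HIF targets, and whether these lists differ was not tested. The median of the HIF targets was 0.01 without untreated array 2, and that of the glycolysis genes was then 0.11. Comparing single arrays, 20 to 25 of the 30 genes were higher on the LPS array in each of the 4 pairings of an LPS with an untreated array, which share arrays with each other, against 45.1% to 49.5% of all genes in these pairings. Set against the mean of all 4 arrays, the members' median was 0.02 and 0.03 on the LPS arrays and -0.03 on both untreated arrays.

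**Figure D2:**
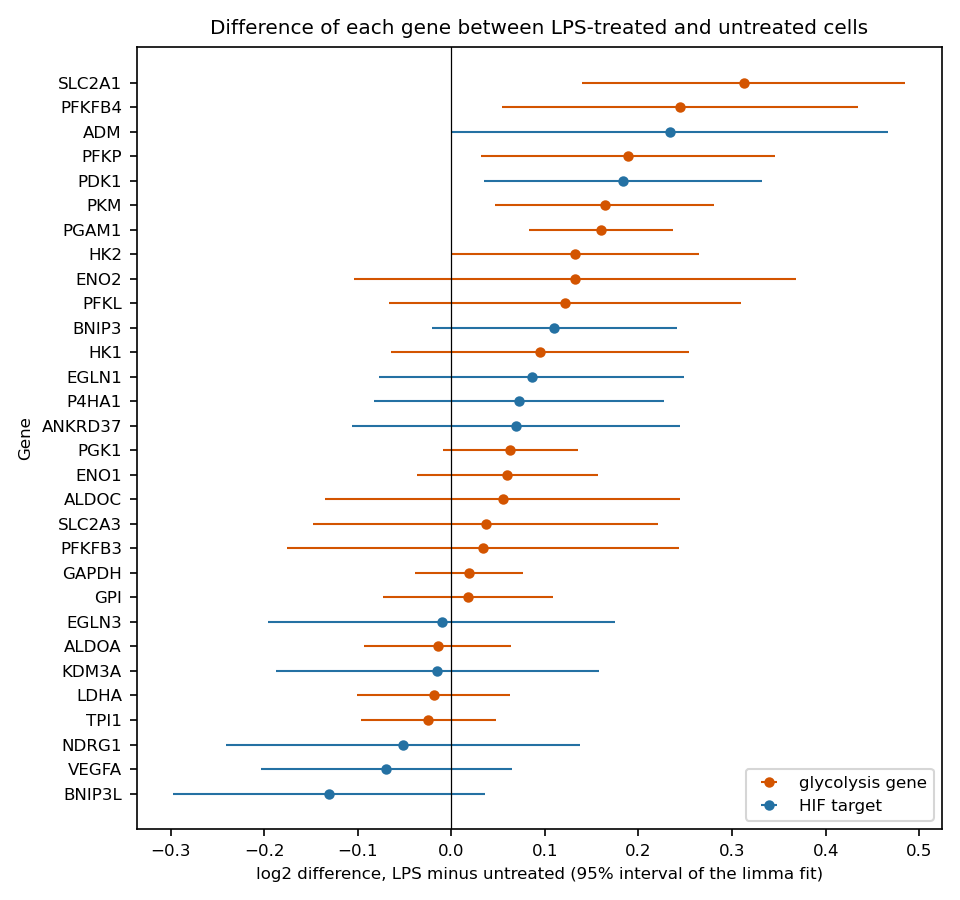
Log2 difference of each gene, LPS minus untreated, with its 95% interval from the limma fit over all probe sets (n = 2 arrays a group), glycolysis genes in orange and HIF targets in blue. The upper end is held by SLC2A1 at 0.31 and PFKFB4 at 0.24 and the lower end by BNIP3L at -0.13, and the intervals of all genes but the 7 named above include 0.

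SLC2A1 had the largest difference of the 30 genes. It encodes the transporter that carries glucose into most epithelial cells and is a HIF target itself. Its log2 level was 11.21 and 11.25 on the LPS arrays, against 11.01 and 10.83 on the untreated arrays. The groups did not overlap, and the spread was wider among untreated arrays (SD 0.12) than among LPS arrays (SD 0.03). The difference was 0.31 (1.24-fold, 95% interval 1.10 to 1.40, unadjusted p = 0.0036, limma adjusted p = 0.309). Its second probe set gave a difference of 0.27 with the same separation of arrays. With 1 array left out, the difference of the brighter one was 0.23 to 0.40. SLC2A3, a high-affinity transporter of neurons and hypoxic tumour cells, was faint, close to the level filter of 6.06, and differed by 0.04 (interval -0.15 to 0.22) without overlap. Its other 2 probe sets of 1 symbol lay under the filter and differed by -0.09 and 0.05, and 2 more, shared with SLC2A14, were not used.

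The first steps of glycolysis trap and split glucose. HK2, the inducible hexokinase that phosphorylates glucose, lay at 11.29 and 11.34 on the LPS arrays, against 11.20 and 11.17 on the untreated arrays. That is a difference of 0.13 (1.10-fold, interval 1.00 to 1.20, limma adjusted p = 0.427) without overlap. The other 2 probe sets of HK2, both fainter, ran the other way with no overlap either, at -0.28 (unadjusted p = 0.00921) and -0.16, so the direction of HK2 depended on the probe set. HK1, the housekeeping hexokinase, kept the groups apart with a difference of 0.09 (interval -0.06 to 0.25). GPI, which turns glucose phosphate into fructose phosphate, differed by 0.02 (interval -0.07 to 0.11).

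Phosphofructokinase commits sugar to glycolysis. Its platelet-type subunit PFKP lay at 11.77 and 11.93 on the LPS arrays, against 11.63 and 11.70 on the untreated arrays. The difference of 0.19 (1.14-fold, interval 1.02 to 1.27, limma adjusted p = 0.377) was 0.11 without LPS array 2, and the second PFKP probe set differed by 0.02. The liver-type subunit PFKL differed by 0.12 (interval -0.07 to 0.31) with overlapping arrays. PFKFB4 and PFKFB3 make and remove the fructose bisphosphate that activates phosphofructokinase. PFKFB4 lay at 8.71 and 8.83 on the LPS arrays, against 8.54 and 8.51 on the untreated arrays, a difference of 0.24 (1.18-fold, interval 1.04 to 1.35, limma adjusted p = 0.357). Both of its probe sets separated the groups, the second by 0.18. PFKFB3 did not separate them, with a difference of 0.03 (interval -0.18 to 0.24).

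Aldolase and triose phosphate isomerase, which split and convert the sugar, had overlapping groups on their brightest probe sets. ALDOA differed by -0.01 (interval -0.09 to 0.06) and was lower on all 3 of its probe sets, although cyclic loess turned its sign to 0.0083. The brain-type aldolase ALDOC differed by 0.05 (interval -0.13 to 0.24). TPI1 differed by -0.02 (interval -0.10 to 0.05), with -0.03 and 0.12 on its other probe sets.

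Lower glycolysis turns triose phosphate into pyruvate and lactate. PGAM1, a phosphoglycerate mutase, had the smallest p of the list and lay at 13.55 on both LPS arrays, against 13.38 and 13.40 on the untreated arrays. The difference was 0.16 (1.12-fold, interval 1.06 to 1.18, unadjusted p = 0.00174, limma adjusted p = 0.27). The SD was 0.0039 in LPS-treated and 0.015 in untreated cells, each from 2 arrays. The standard error of the moderated fit was larger, at 0.03. PGAM1 has 1 probe set of the _s_at type, and so has no second value to set beside it. PKM, the pyruvate kinase, lay at 13.91 and 13.97 on the LPS arrays, against 13.71 and 13.85 on the untreated arrays. Its difference was 0.16 (1.12-fold, interval 1.03 to 1.21, limma adjusted p = 0.343), while its other probe set differed by -0.07 with overlapping arrays.

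The other enzymes of this stretch had smaller differences or overlapping arrays. PGK1, phosphoglycerate kinase, separated the groups with a difference of 0.06 (interval -0.0088 to 0.14), and all 6 of its probe sets were above 0, from 0.02 to 0.11. ENO1, the common enolase, differed by 0.06 (interval -0.04 to 0.16), again above 0 on all 4 probe sets, but with overlapping arrays. The neuronal enolase ENO2 differed by 0.13 with a wide interval (-0.10 to 0.37). LDHA, which reduces pyruvate to lactate and is a classical HIF target, lay at 14.08 and 14.05 on the LPS arrays, against 14.12 and 14.05 on the untreated arrays, a difference of -0.02 (interval -0.10 to 0.06) that became 0.0040 after cyclic loess.

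GAPDH, often used as a reference gene, lay at 14.75 and 14.74 on the LPS arrays, against 14.74 and 14.71 on the untreated arrays. The difference was 0.02 (interval -0.04 to 0.08), and the groups overlapped. The array also carries control probe sets along the GAPDH transcript, and the difference between the 3′ and the 5′ one, a sign of RNA integrity, was 0.0010 and 0.11 on the LPS arrays and 0.02 and 0.07 on the untreated arrays. The same measure on actin control probe sets was 0.39 and 0.63 on the LPS arrays and 0.64 and 0.86 on the untreated arrays. Poly-A control transcripts added before labelling were 0.48 lower on the LPS arrays. The part of these control values in the differences of the pathway genes was not tested.

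**Figure D3:**
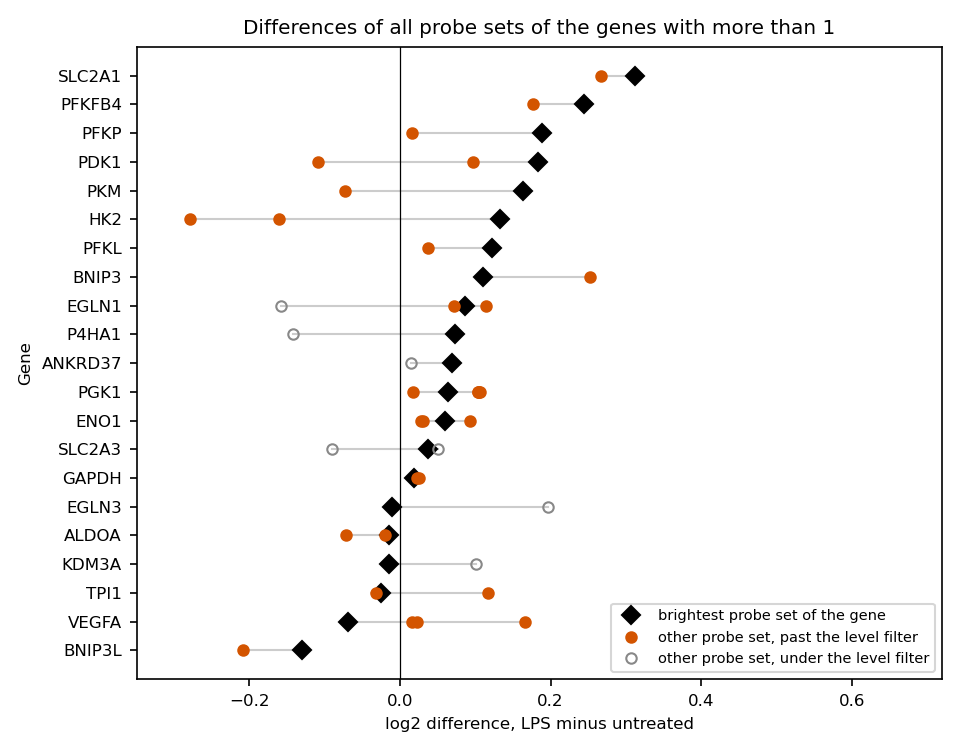
Log2 differences (LPS minus untreated) of all probe sets of the 21 genes that have more than 1, with the brightest probe set as a black diamond and the others as circles, filled where above the level filter and open where under it. SLC2A1, PFKFB4, BNIP3 and PGK1 are among the genes to the right of 0 on all probe sets, and BNIP3L and ALDOA lie to the left. HK2, PKM, PDK1, TPI1 and VEGFA lie on both sides by their diamonds and filled circles alone. EGLN1, EGLN3, KDM3A, P4HA1 and SLC2A3 lie on both sides when open circles are counted.

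Of the 21 genes with more than 1 probe set, 16 had more than 1 above the level filter, and in 11 of these all such probe sets had 1 sign. The brightest probe set was of the _s_at or _x_at type in 17 of the 30 genes. Probe sets of these types can bind related transcripts, and several glycolysis genes, GAPDH among them, have processed pseudogenes, so these values are uncertain to that extent.

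The HIF targets outside glycolysis were mixed. PDK1, the kinase that keeps pyruvate out of mitochondria by inhibiting pyruvate dehydrogenase, lay at 10.54 and 10.51 on the LPS arrays, against 10.34 and 10.35 on the untreated arrays. The groups did not overlap (SD 0.02 in LPS-treated and 0.0059 in untreated cells), and the difference was 0.18 (1.14-fold, interval 1.02 to 1.26, limma adjusted p = 0.365). Its other probe sets differed by 0.10 and -0.11 with overlapping arrays. ADM, a vasodilator peptide, lay at 8.47 and 8.32 on the LPS arrays, against 8.27 and 8.06 on the untreated arrays. The lower LPS array was just above the higher untreated array, and the difference was 0.23 (1.18-fold, interval 1.00 to 1.38, unadjusted p = 0.0503, limma adjusted p = 0.427).

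VEGFA, the vascular growth factor and a standard readout of HIF, was lower on its brightest probe set. That one lay at 11.20 and 11.25 on the LPS arrays, against 11.28 and 11.31 on the untreated arrays, a difference of -0.07 (interval -0.20 to 0.06). Its other 3 probe sets differed by 0.17, 0.02 and 0.02, and the one at 0.17 separated the groups the opposite way. The direction of VEGFA therefore depended on the probe set, and its mean over probe sets was 0.03.

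BNIP3 and BNIP3L, paralogous receptors that send mitochondria to autophagy, ran in opposite directions. For BNIP3 the brightest probe set gave 0.11 (interval -0.02 to 0.24) and the other 0.25. BNIP3L lay at 10.28 and 10.33 on the LPS arrays, against 10.49 and 10.38 on the untreated arrays, a difference of -0.13 (interval -0.30 to 0.04), and its second probe set differed by -0.21 (unadjusted p = 0.0424). Each gene separated the groups on both of its probe sets. Neither passed, with limma adjusted p-values of 0.473 for BNIP3 and 0.497 for BNIP3L, and the difference between them was not tested.

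The oxygen sensors had small differences on their brightest probe sets. EGLN1, the main prolyl hydroxylase acting on HIF, separated the groups with a difference of 0.09 (interval -0.08 to 0.25), with 0.11 and 0.07 on 2 further probe sets and -0.16 on 1 under the filter. EGLN3, a prolyl hydroxylase that HIF induces, was faint at 7.14 and 7.05 on the LPS arrays, against 7.10 on both untreated arrays. Its second probe set, under the filter, differed by 0.20 and separated the groups. ANKRD37, an ankyrin repeat protein and direct HIF target, separated the groups by a difference of 0.07 (interval -0.11 to 0.24). P4HA1, a subunit of collagen prolyl hydroxylase, differed by 0.07 (interval -0.08 to 0.23) with overlap, and by -0.14 on a probe set under the filter. KDM3A, a histone demethylase, differed by -0.02 (interval -0.19 to 0.16) and was above 0 after quantile normalization or cyclic loess, and its probe set under the filter differed by 0.10. NDRG1, a stress-induced growth regulator, differed by -0.05 (interval -0.24 to 0.14).

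These genes are bright on the arrays, and bright genes had differences below 0 more often than faint ones. Of the 30 genes, 18 lay in the 2 brightest of 10 equal bins of all genes tested. In those bins the median log2 difference was 0.07 over the 18 genes and -0.04 over all 3251 genes. Among the 18, 13 (72.2%) were above 0, against 34.4% of the 3251. After quantile normalization the shares were 77.8% and 50%, and after cyclic loess 88.9% and 51.2%. The 18 genes were not matched in level to the other genes of those bins. The part of level and of scaling in these shares was not tested. With quantile normalization 10 members had an unadjusted p under 0.05 and were higher, against 5.62% of all genes, and with cyclic loess also 10, against 5.31%. None passed after adjustment in either.

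**Figure D4:**
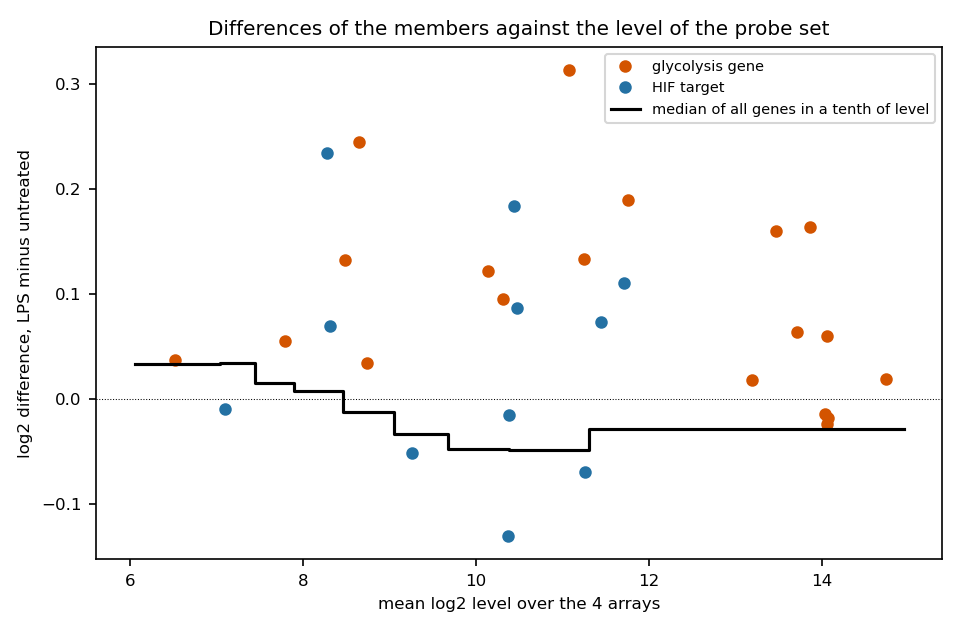
Log2 difference of each gene (LPS minus untreated, vertical axis) against its mean log2 level over the 4 arrays, with glycolysis genes in orange and HIF targets in blue. The black line is the median of all genes tested in each of 10 level bins, from 0.03 in the faintest to -0.03 in the brightest, and most of the coloured points lie above it.

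The genes of the HIF subunits had small differences on the brightest probe set of each. HIF1A, the oxygen-sensitive subunit, lay at 13.14 and 13.17 on the LPS arrays, against 13.09 and 13.12 on the untreated arrays, a difference of 0.05 (interval -0.04 to 0.13). EPAS1, the second alpha subunit, differed by 0.09 (interval -0.05 to 0.23), the partner ARNT by -0.0038 (interval -0.19 to 0.18) and VHL by -0.08 (interval -0.27 to 0.10). The other ARNT probe sets above the filter differed by 0.17, -0.17, -0.18 and 0.05, so the direction of ARNT depended on the probe set. Of 13 measured subunits and regulators, 0 passed in limma. Without adjustment, p was under 0.05 for HIF3A alone (0.21; 7.69% of the list higher, against 3.72% of all genes), for which 3 further probe sets above the filter differed by -0.04, -0.09 and -0.04. HIF is controlled largely at the protein level, which the arrays do not measure.

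Of 20 further HIF targets measured, 0 passed in limma, and the median was 0.03. At an unadjusted p under 0.05, 4 were higher (20%, against 3.72% of all genes) and 1 was lower (5%, against 7.91%). DDIT4, an inhibitor of mTOR signalling, lay at 12.66 and 12.53 on the LPS arrays, against 12.29 and 12.37 on the untreated arrays, a difference of 0.27 (limma adjusted p = 0.285). MXI1, a MYC antagonist, lay at 9.74 and 9.65 on the LPS arrays, against 10.16 and 9.94 on the untreated arrays, a difference of -0.36 (limma adjusted p = 0.32). The 2 smallest p-values among the further targets thus belonged to differences of opposite sign.

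Among pathways that branch from glycolysis, the medians were nearer 0 or below it. In lactate and pyruvate handling, no probe set carried the symbol SLC16A1 or SLC16A3 alone, so these lactate transporter genes were not measured. Of the 12 measured genes of this list, 0 passed in limma, 9 were below 0 (75%, against 51.8% of all genes), and the median was -0.10. At an unadjusted p under 0.05, 3 were lower (25%, against 7.91% of all genes) and 1 was higher (8.33%, against 3.72%). The median level of this list was 11.02. In the level bin from 10.38 to 11.31, 32.9% of all genes were above 0 and the median difference was -0.05. The part of level in the list's differences was not tested. PDK4, a relative of PDK1 that responds to fasting, lay at 7.33 and 7.39 on the LPS arrays, against 7.84 and 7.63 on the untreated arrays, a difference of -0.38 (limma adjusted p = 0.32). Its second probe set above the filter differed by 0.15. PDHB, a subunit of the pyruvate dehydrogenase that PDK enzymes inhibit, differed by -0.15 (limma adjusted p = 0.333) and by -0.19 on its other probe set.

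Further glycolysis genes, other isozymes and enzymes of side reactions, had 9 of 12 below 0 (75%, against 51.8% of all genes) and a median of -0.04. None of the 12 reached an unadjusted p under 0.05. Some were bright here, such as LDHB at 14.36 in LPS-treated and 14.39 in untreated cells. The median level of this list was 9.85, in a level bin where 34.5% of all genes were above 0. BPGM, which makes bisphosphoglycerate, differed by -0.19 and the liver-type pyruvate kinase PKLR by 0.17. PKLR was faint (6.99 in LPS-treated and 6.82 in untreated cells), and its other probe sets above the filter differed by -0.02 and 0.27. Of 6 pentose phosphate genes, 3 were above 0 and 0 reached an unadjusted p under 0.05. RPE, an epimerase, differed by -0.15 and PGD, which oxidises phosphogluconate, by 0.07. Other probe sets above the filter differed by 0.0003 and -0.13 for RPE and by 0.05 and -0.01 for PGD. Of 7 genes of gluconeogenesis and glycogen, 1 was higher at an unadjusted p under 0.05 (14.3%, against 3.72% of all genes), the glycogen synthase GYS1 (0.28), and the phosphorylase PYGB differed by 0.15. No gene of these 3 lists passed in limma.

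**Figure D5:**
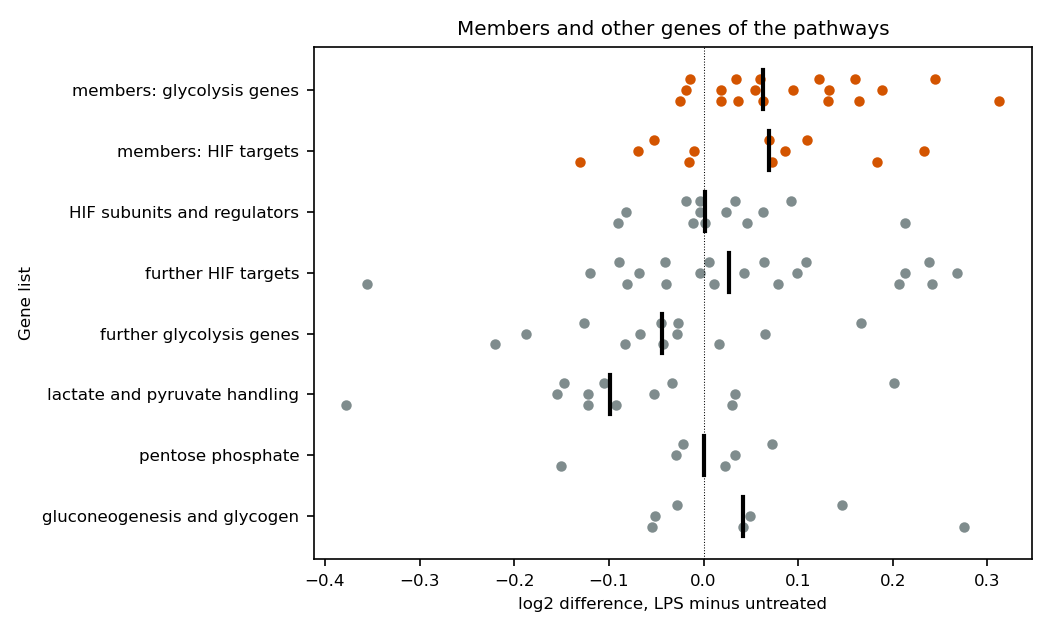
Log2 differences (LPS minus untreated) of the measured genes in each list, 1 point a gene, with the list's median as a black bar and the 30 genes described above in orange, in their 2 lists. The medians run from 0.07 in the HIF targets to -0.10 in lactate and pyruvate handling, and the points of every list fall on both sides of 0.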

How the data were processed

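The deposited values were log2 levels of 54675 Affymetrix probe sets on 4 arrays, a scale judged from the values. MAS5 and RMA are named in the submitters' processing notes, and which of them made the values is not given in the sources used here. After 62 control probe sets were removed, those whose mean over the arrays lay below the 30 percentile (6.06) were dropped, and 38229 remained. Differences were fitted on these in R 4.3.3 with limma 3.58.1 (lmFit, eBayes with trend, no replicate block, 7.06 moderated degrees of freedom). Each of 16252 genes was then represented by its brightest probe set of 1 symbol, and p-values were adjusted over genes by Benjamini-Hochberg, two-sided, at 0.05. Levels of different probe sets are not compared as amounts. The fit was tested on simulated data in 3 runs. At the threshold it called 4.67% of 1.25-fold changes, 30.7% of 1.5-fold, 70.7% of 2-fold and 93.3% of 4-fold changes.

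The members, lists and tests were chosen with earlier results of these data known. All 31 genes were named. All array values were given for those at an unadjusted p under 0.05 or a difference of at least 0.2, and for GAPDH. In other lists the 2 smallest p-values were named. Array values of other genes are given by choice after they were seen.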

Additional observations from a re-analysis of the deposited data

How the results depend on the processing

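No member passed the threshold under any alternative, including an adjusted p under 0.1. The median difference of the members was 0.093 after quantile normalization, 0.089 after cyclic loess, 0.052 after median centring and 0.054 with the mean of probe sets. Without _x_at and _s_at probe sets only 17 members were left, some of them, such as TPI1, on another probe set. Their median was 0.12, and that of the glycolysis genes among them was 0.13. These medians thus cover a different set of genes from the others. With 1 array left out, the median was 0.054 to 0.063 for the members, 0.046 to 0.11 for the glycolysis genes and 0.012 to 0.091 for the HIF targets. Members higher at an unadjusted p under 0.05 numbered 3 without the variance trend (3.69% of all genes) and 2 to 8 with 1 array left out (1.45% to 6.73% of all genes). Those lower numbered 1 with the mean of probe sets (8.34% of all genes) and 0 to 1 with 1 array left out (2.56% to 13.6%). Members with both LPS arrays lowest numbered 1 after quantile normalization, cyclic loess or the removal of _x_at and _s_at, where 21% to 24.6% of all genes were so placed. They numbered 4 to 6 with 1 array left out, against 36.4% to 42.2% of all genes. Over all genes, those past the threshold and lower numbered 1 with the mean of probe sets or without _x_at and _s_at, 0 to 1 with 1 array left out, and 5 with the variance moderated over genes alone, an alternative chosen after seeing the data. With the replicate number as a block, 5 genes passed higher and 2 lower, 0 members passed, and 8 members were higher at an unadjusted p under 0.05, against 4.92% of all genes. The labels do not say that the number pairs arrays, and deviations of same-numbered arrays correlated at r = 0.15 over probe sets.

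Signs turned under some alternative for 12 members, none past the threshold, and for the median of all genes (0.00054 with no filter, 0.013 after quantile normalization, 0.010 after cyclic loess). After cyclic loess ALDOA was at 0.0083, KDM3A at 0.033 and LDHA at 0.0040, and KDM3A was at 0.038 after quantile normalization. With the mean of probe sets HK2 was at -0.10, TPI1 at 0.020 and VEGFA at 0.034, and TPI1 was at 0.12 without _x_at and _s_at. With 1 array left out, the ranges were -0.050 to 0.021 for ALDOA, -0.0052 to 0.11 for ALDOC, -0.056 to 0.035 for EGLN3, -0.013 to 0.049 for GPI, -0.086 to 0.056 for KDM3A, -0.055 to 0.018 for LDHA, -0.12 to 0.012 for NDRG1, -0.0018 to 0.15 for P4HA1 and -0.060 to 0.13 for PFKFB3. The cause was not tested. The number of arrays, 2 in each group, limits the precision of every value.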
